A study of Mus musculus with 4 samples.

Results

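The subcortical maternal complex is a large protein assembly beneath the plasma membrane of the mammalian egg. Its genes are transcribed in the growing oocyte, and several of them are maternal-effect genes, which means that embryos of mothers without them arrest at the first cleavages although the mothers themselves are healthy. NLRP5, OOEP and TLE6 form its core, KHDC3 joins through NLRP5, and the complex has been tied to the cytoplasmic lattices, to actin and spindle organisation and to organelle placement. The fully grown oocyte is transcriptionally quiet, so during meiotic maturation the level of a stored mRNA depends on its stability, and its translation often follows the length of its poly(A) tail.

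The 8 genes described here were taken by name, *Nlrp5*, *Ooep*, *Tle6*, *Padi6*, *Khdc3*, *Zbed3*, *Nlrp4f* and *Nlrp2*, out of 21957 genes with a value. Each had 1 entry, matched by its Ensembl identifier, and all 8 were measured in all libraries with no filter on low values. Oocytes came from B6D2F1 hybrid females of 6 to 8 weeks, all injected with pregnant mare serum gonadotropin before collection. GV oocytes, still holding the germinal vesicle, stood at 0 h of culture. MII oocytes were cultured for 12 h without drug, and TubA-10 and TubA-20 oocytes for 12 h with 10 or 20 μM tubastatin A, an inhibitor made against the cytoplasmic deacetylase HDAC6. The titles give these doses, but the treatment field of the labels gives TubA-10 as 20 μM and TubA-20 as 11 μM, so the doses rest on the titles. The labels call the MII sample an embryo, while the methods describe unfertilised oocytes collected after the polar body had appeared. The paper reports that drugged oocytes failed to extrude a polar body and that those at the higher dose arrested before MII. TubA-20 against MII therefore differs in meiotic stage as well as in drug, and the part of each was not tested. No genotype other than the hybrid background was given, and all 4 groups shared it. Tubastatin A was dissolved in DMSO, and the methods do not say whether the undrugged oocytes received DMSO.

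Each condition was 1 poly(A)-selected library from pooled oocytes, so no difference below could be set against a spread between replicates and none has a p-value. Levels are FPKM, fragments divided by the mapped library and the length of the transcript, and may be compared between genes. Differences are log2 ratios of FPKM + 1, and past 2-fold served as the call in each direction. In a pooled sample, fewer cells with a transcript and less transcript per cell cannot be told apart, and neither can transcript amount and recovery by oligo(dT) when tail length varies. All 10 oocyte markers were above 1 FPKM in every library. *Foxl2*, which defines granulosa cells, was at 0 in all 4 libraries, and the summed FPKM of the 13 cumulus and granulosa markers was 11.0 to 17.9. Cumulus cells had been removed with hyaluronidase and the denuded oocytes rinsed before culture. Of these 13 markers, *Cyp19a1* was at 6.14 FPKM in GV and 7.42 to 10.3 in the cultured libraries, *Kitl* was at 0.952 against 2.03 to 2.75, and *Inha* was at 7.50 FPKM in GV against 0.239 to 0.314 in the cultured ones. *Fshr*, *Amh*, *Amhr2* and *Inhba*, all below 1 FPKM, were likewise highest in GV. *Has2* and *Ptgs2*, also below 1 FPKM, were lowest in GV. *Ptx3* and *Tnfaip6*, at 0 in GV and at 1.19 and 1.57 FPKM in TubA-20, were the 2 markers past 2-fold higher in TubA-20 against GV and against TubA-10. Of all genes, 7.61% and 0.660% were higher by this limit. *Inha* was the 1 marker past 2-fold lower against GV in MII, TubA-10 and TubA-20, where 8.34%, 5.60% and 11.7% of all genes were. The 3 globin genes were at 0 in all 4 libraries, and the 8 blood and immune markers summed to 1.64 to 2.30 FPKM. By the step between low FPKM values, MII had about 1.63 times, TubA-10 about 1.72 times and TubA-20 about 0.894 times the depth of GV. These are rough estimates, and the read totals stated for the libraries place TubA-20 above GV instead.

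The ends of the transcripts are shown first, because oligo(dT) selection acts on the tail that follows them and because the members differ there. In oocytes a U-rich cytoplasmic polyadenylation element near the nuclear polyadenylation signal can recruit CPEB and direct the lengthening or masking of the tail. The last 100 bases of the 3′ UTR were searched on the transcript strand for TTTTAT or TTTTAAT, both forms of this element, and for AATAAA or ATTAAA, the signal. Capitals mark these motifs in the 30-base windows below, which were read 5′ to 3′ from the GRCm38 transcripts and are written as DNA.
Zbed3: tttttTTTTAATAAAcTTTTATttatctgc
Nlrp4f: gTTTTATATTAAAgaatagtagtcatttcc
Khdc3: ttaaagtattctAATAAAaaaaaaattgca
Padi6: agagccAATAAAgcatggtattctgaatgt
Tle6: agttgcgtgtAATAAAacaattgaaatggc
Nlrp5: gaatgaAATAAAcacagcatttagaaaagc
Nlrp2: ATTAAAcaggAATAAAtgtaaaacattcgt

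*Zbed3* held 2 cytoplasmic polyadenylation motifs, one overlapping its AATAAA and one just after it, and *Nlrp4f* held 1 directly before its ATTAAA. The other 6 members held none in 100 bases. The signal nearest the end began 18 bases before it in *Khdc3*, 20 in *Tle6*, 21 in *Zbed3*, 23 in *Nlrp4f* and *Nlrp2*, and 24 in *Nlrp5* and *Padi6*. The *Nlrp2* window ends 41 bases before the transcript end and shows 2 of its 3 signals, while the other windows run to the end. The annotated end of *Ooep* held neither kind of motif, nor did the 100 bases before the RefSeq end, which lies 794 bases upstream, a check added after the values were seen. Among 5919 genes of 10 FPKM or more in any library and a 3′ UTR of this length, 21.8% held a cytoplasmic polyadenylation motif and 82.5% a signal. A match is a description of letters only.

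On GRCm38 the members lie apart on 5 chromosomes. *Nlrp5* (chr7:23385889-23441922, plus strand, 16 exons) and *Nlrp2* (chr7:5298547-5351035, minus strand, 12 exons) share chromosome 7. *Ooep* (chr9:78376109-78378725, minus strand, 3 exons) and *Khdc3* (chr9:73101836-73104438, plus strand, 3 exons) share chromosome 9. *Zbed3* (chr13:95323612-95337841, plus strand, 2 exons) and *Nlrp4f* (chr13:65177111-65205977, minus strand, 11 exons) share chromosome 13. *Tle6* (chr10:81590904-81601073, minus strand, 14 exons) and *Padi6* (chr4:140727355-140742643, minus strand, 16 exons) each stand on a chromosome of their own. In the transcripts used here, the 3′ UTR runs from 109 bases in *Nlrp5* to 1446 in *Ooep*, with 1085 in *Zbed3* and 246 in *Khdc3*.

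All 8 genes were abundant. In TubA-20, *Khdc3*, *Padi6* and *Tle6* were below and *Zbed3* above all other libraries, and *Nlrp2* was lower in all cultured oocytes than in GV. The summed FPKM of the 8 was 6437 in GV oocytes, 6799 in MII, 7889 with TubA-10 and 7674 with TubA-20, which was 1.03%, 1.20%, 1.34% and 1.22% of the FPKM of all genes. *Zbed3* was the highest member in every library and *Khdc3* the next in GV, MII and TubA-10, followed there by *Tle6*, *Padi6* and *Ooep*. *Nlrp4f*, *Nlrp2* and *Nlrp5*, all from the NLR family, were the lowest 3 in every library. The order changed in TubA-20, where *Tle6* stood above *Khdc3* and *Ooep* above *Padi6*. The highest member exceeded the lowest by 9.21-fold in GV oocytes, 45.5-fold in MII, 33.5-fold with TubA-10 and 73.2-fold with TubA-20. With 1 library each, it cannot be said which neighbours in these orders differ beyond replicate error.

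**Figure D1:**
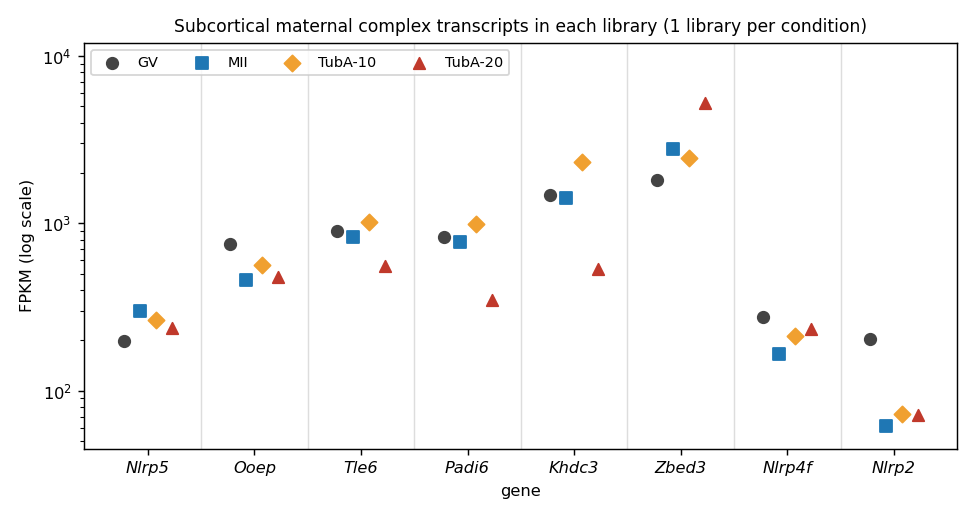
FPKM of each of the 8 genes (log axis) in the GV, MII, TubA-10 and TubA-20 libraries, each point being 1 library. *Zbed3* is highest in TubA-20 (5213 FPKM), *Khdc3*, *Padi6* and *Tle6* are lowest there (531, 350 and 559 FPKM), and *Nlrp2* is high in GV only (203 FPKM).

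*Ooep*, the KH-like core subunit also called FLOPED, stood at 749 FPKM in GV oocytes, 460 in MII, 567 with TubA-10 and 479 with TubA-20. GV was the highest library and the 3 cultured ones lay between 61.4% and 75.6% of it. Between TubA-20 and MII the log2 ratio was 0.06, and its sign turned under all 4 other scalings. *Nlrp5*, the NLR-family core subunit also called MATER, stood at 197 FPKM in GV oocytes, 299 in MII, 263 with TubA-10 and 238 with TubA-20. Here GV was the lowest library, so the pair of core transcripts lay on opposite sides of GV after culture, with log2 ratios in MII of −0.70 for *Ooep* and 0.60 for *Nlrp5*. The level of *Ooep* over that of *Nlrp5* was 3.81 in GV oocytes, 1.54 in MII, 2.15 with TubA-10 and 2.01 with TubA-20. The *Nlrp5* transcript shares 8.93% of its 50-base stretches with other annotated genes, nearly all of it with the pseudogene *Nlrp5-ps*, which was not analysed here.

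*Tle6* encodes a relative of the Groucho co-repressors that serves as a core partner in the complex. It stood at 895 FPKM in GV oocytes, 824 in MII, 1023 with TubA-10 and 559 with TubA-20. TubA-10 was the highest library and TubA-20 the lowest, over a range of 1.83-fold, and the sign of the small difference between MII and GV turned with equal FPKM sums or equal *Gapdh*. TubA-20 gave log2 ratios of −0.68 to GV, −0.56 to MII and −0.87 to TubA-10, and none of them passed 2-fold with the values as deposited. With *Gapdh* set equal, the last was −1.07.

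*Khdc3* encodes a KH-domain protein, also called FILIA, needed for correct spindle assembly and chromosome segregation in the cleaving embryo. It stood at 1473 FPKM in GV oocytes, 1422 in MII, 2311 with TubA-10 and 531 with TubA-20. GV and MII were nearly equal, TubA-10 was the highest library and TubA-20 the lowest. Relative to MII the log2 ratio was 0.70 for TubA-10 and −1.42 for TubA-20, so the doses lay on opposite sides of the undrugged oocytes, and TubA-20 had 23.0% of the TubA-10 level (log2 −2.12). Among genes of 10 FPKM or more in either library, 64 (1.10%) were as low as *Khdc3* in TubA-20 against TubA-10 and 98 (1.74%) in TubA-20 against MII, the gene itself included. For TubA-20 against GV the log2 ratio was −1.47, and 1341 genes (21.3%) were as low. In TubA-10 against MII, 323 genes (5.68%) were as high. The sign of the small difference between MII and GV depended on the scaling. *Gm20509*, a protein-coding readthrough model on the same strand, shares 42.8% of the 50-base stretches of the *Khdc3* transcript, and it was listed at 0.810, 1.18, 2.32 and 0.469 FPKM in the same order of libraries. Fragments from the shared stretch could have been assigned to either gene, and the part of this in the result was not tested.

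*Padi6* encodes a peptidylarginine deiminase family protein required for the cytoplasmic lattices. Its levels were 833 FPKM in GV oocytes, 776 in MII, 987 with TubA-10 and 350 with TubA-20. TubA-20 stood apart below the other 3 libraries, in the order seen for *Tle6* but over a range of 2.82-fold, with the same turn of the sign between MII and GV. It was 2.21-fold below MII (log2 −1.14), 2.38-fold below GV (−1.25) and 2.81-fold below TubA-10 (−1.49). TubA-10 lay slightly above MII (0.35). Among genes of 10 FPKM or more, 226 (4.02%) were as low in TubA-20 against MII and 350 (6.03%) in TubA-20 against TubA-10. For TubA-20 against GV the number was 1535 (24.4%). No 50-base stretch of the *Padi6* or *Zbed3* transcript was shared exactly with another annotated gene. Stretches were counted along the transcript of each member used here and searched in all annotated transcripts of other genes. Near-identical copies were not searched.

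*Zbed3* encodes a BED-type zinc finger protein found with the complex. It stood at 1811 FPKM in GV oocytes, 2792 in MII, 2453 with TubA-10 and 5213 with TubA-20. All 3 cultured libraries were above GV and TubA-20 was the highest by far. Its rank among all genes was 28 in GV oocytes, 9 in MII, 15 with TubA-10 and 6 with TubA-20. Relative to GV the log2 ratio was 0.62 for MII, 0.44 at the lower dose and 1.52 at the higher, a 2.88-fold difference in the last. Relative to MII it was −0.19 for TubA-10 and 0.90 for TubA-20, the second below the 2-fold limit, and TubA-20 exceeded TubA-10 by 2.12-fold (log2 1.09). Among genes of 10 FPKM or more in either library, 48 (0.854%) were at least as high as *Zbed3* in TubA-20 against MII, the gene itself included. For TubA-20 against TubA-10 the number was 52 (0.896%), and for TubA-20 against GV it was 149 (2.37%). The difference between the doses no longer passed 2-fold with upper quartiles or *Gapdh* set equal (0.89 for the second).

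*Nlrp4f*, an NLR gene tied to lattices and organelle distribution, stood at 275 FPKM in GV oocytes, 165 in MII, 213 with TubA-10 and 233 with TubA-20. GV was again the highest library, and MII was the lowest. Relative to GV the log2 ratio was −0.74 for MII, −0.37 at the lower dose and −0.24 at the higher, and no difference passed 2-fold. It shares 7.08% of its 50-base stretches with other genes, most of them with *Nlrp4g*, which was listed at 41.6 to 47.0 FPKM.

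*Nlrp2*, an NLR-family maternal-effect gene whose protein associates with the complex, stood at 203 FPKM in GV oocytes, 61.4 in MII, 73.1 with TubA-10 and 71.2 with TubA-20. GV was high and the 3 cultured libraries were close to each other. It was 3.27-fold lower in MII than in GV (log2 −1.71), with −1.46 for TubA-10 and −1.50 for TubA-20, and it was the only member past 2-fold in MII against GV. Among genes of 10 FPKM or more in either library, 9.06% were as low in MII against GV. The shares were 7.42% in TubA-10 against GV and 20.9% in TubA-20 against GV. Of the cumulus and granulosa markers, 5 were highest in GV, with *Inha* the highest of them. *Cyp19a1*, *Kitl*, *Has2*, *Ptgs2* and *Tnfaip6* were lowest there, and *Ptx3* was at 0 there and in TubA-10. The 13 summed to 17.9 FPKM in GV, 14.3 in MII and 11.0 and 17.5 at the lower and higher dose. Their part in the result was not tested. Against MII, both doses were close, with log2 ratios of 0.25 and 0.21. *Gm5065* overlaps *Nlrp2* on the opposite strand and was listed at 53.7 FPKM in GV, 50.4 in MII, and 67.0 and 58.7 at the lower and higher dose. The authors counted with a strand-specific setting.

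Over the 8 members, MII against GV had none higher and 1 lower by more than 2-fold, against 3.05% higher and 8.34% lower among all genes. For TubA-10 against GV the counts were again 0 and 1, against 0.742% and 5.60% of all genes. For TubA-20 against GV, 1 member was higher and 3 were lower, against 7.61% and 11.7% of all genes. For TubA-10 against MII no member passed 2-fold in either direction, and 0.515% and 0.128% of all genes did. For TubA-20 against MII, 0 were higher and 2 lower, against 0.328% and 2.44%. For TubA-20 against TubA-10, 1 was higher and 2 were lower, against 0.660% and 5.52%. All members exceed 10 FPKM, and most genes of the table do not. Among genes of 10 FPKM or more in either library, 27.7% were lower by more than 2-fold in TubA-20 against GV, 6.03% in TubA-20 against MII and 14.3% in TubA-20 against TubA-10. For MII against GV, where *Nlrp2* was the member past 2-fold, 22.2% of such genes were lower and 9.39% higher, and for TubA-10 against GV 15.5% were lower and 1.84% higher. In the direction of *Zbed3*, 22.7% were higher in TubA-20 against GV, 0.463% in TubA-20 against MII and 1.62% in TubA-20 against TubA-10. For TubA-10 against MII, 1.34% were higher and 0.193% lower. With 8 genes, 1 member is 12.5% of the list. The 3 comparisons with GV share that library, and those with MII share MII.

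**Figure D2:**
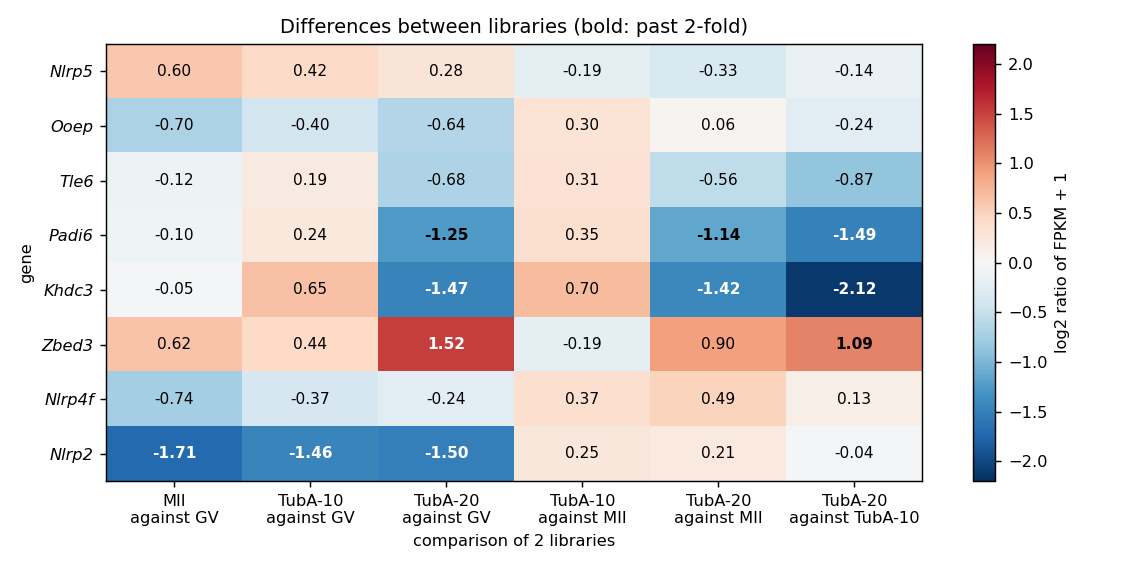
Log2 ratio of FPKM + 1 for each of the 8 genes (rows) in the 6 comparisons of 2 libraries (columns), red for higher and blue for lower in the first library named. Bold values are past 2-fold, and they lie in *Nlrp2* for the comparisons with GV and in *Padi6*, *Khdc3* and *Zbed3* for TubA-20.

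The median log2 ratio of the members was −0.11 for MII against GV, 0.22 for TubA-10 against GV and −0.66 for TubA-20 against GV. The medians over genes of 10 FPKM or more in either library were 0.12, 0.16 and 0.27, and over all genes they were 0.00. Relative to MII the member median was 0.30 for TubA-10 and −0.13 for TubA-20, beside 0.00 and 0.10 for the genes of 10 FPKM or more. Between the doses it was −0.19 beside 0.15. The median hides the spread, since the members spanned 0.89 log2 in TubA-10 against MII but 2.32 in TubA-20 against MII and 3.21 in TubA-20 against TubA-10. In TubA-10, 6 of 8 members were above MII, and in TubA-20, 4 were above and 4 below.

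With the values as deposited, *Tle6*, *Padi6* and *Khdc3* were the 3 members above MII in TubA-10 and below MII in TubA-20. This was also found for 1697 of 5860 genes (29.0%) of 10 FPKM or more in MII, TubA-10 or TubA-20. *Zbed3* had the opposite order, and *Nlrp5* was below MII at both doses, while *Nlrp4f* and *Nlrp2* were above MII at both. *Ooep* was above MII at both as deposited, but under the 4 other scalings it was below MII in TubA-20, by −0.03 to −0.10.

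**Figure D3:**
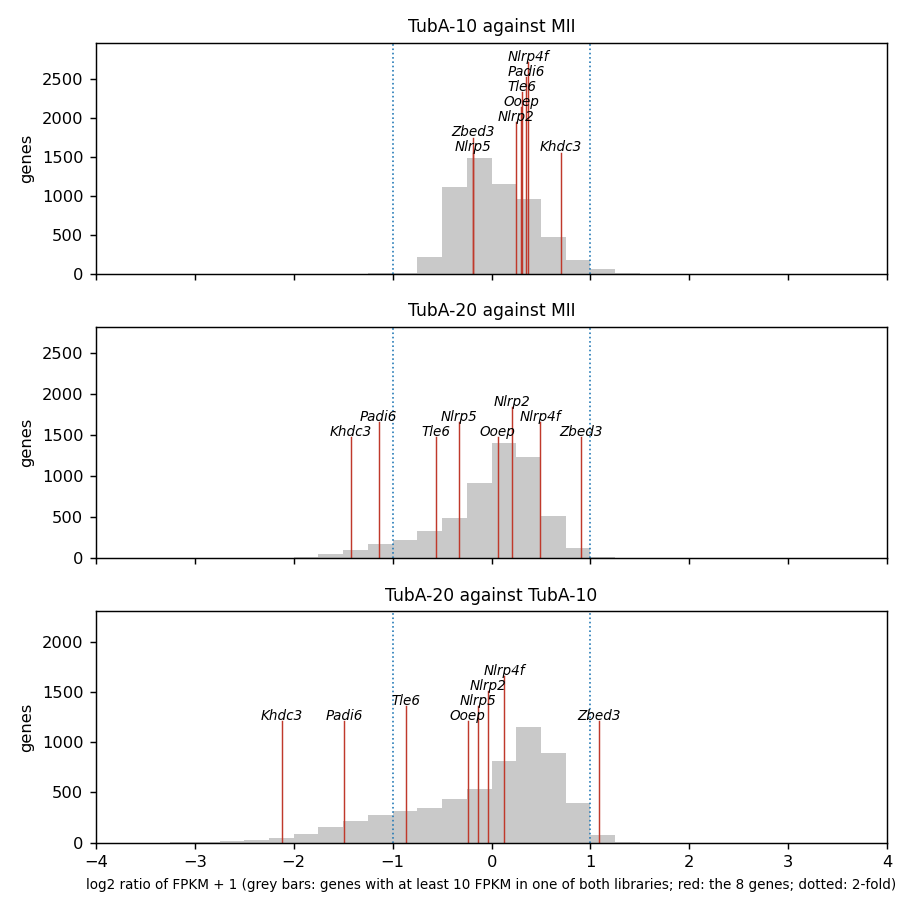
Number of genes (vertical axis) by log2 ratio of FPKM + 1 (horizontal axis) among genes of 10 FPKM or more in either library, with the 8 genes as red lines and the 2-fold limits dotted. The members lie together between −0.19 and 0.70 in TubA-10 against MII and spread from −2.12 (*Khdc3*) to 1.09 (*Zbed3*) in TubA-20 against TubA-10.

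The make-up of the summed level differed more between libraries than the sum. *Zbed3* took 28.1% of the members' summed FPKM in GV oocytes, 41.1% in MII, 31.1% with TubA-10 and 67.9% with TubA-20. *Khdc3* took 22.9%, 20.9%, 29.3% and 6.92% in the same order. The level of *Zbed3* over that of *Khdc3* was 1.23 in GV oocytes, 1.96 in MII, 1.06 with TubA-10 and 9.82 with TubA-20, a ratio within each library that no scaling of the libraries alters. Without *Zbed3* the sum was 4626 FPKM in GV oocytes, 4008 in MII, 5437 with TubA-10 and 2461 with TubA-20. The 3 core transcripts together gave 1841, 1584, 1852 and 1276 FPKM.

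**Figure D4:**
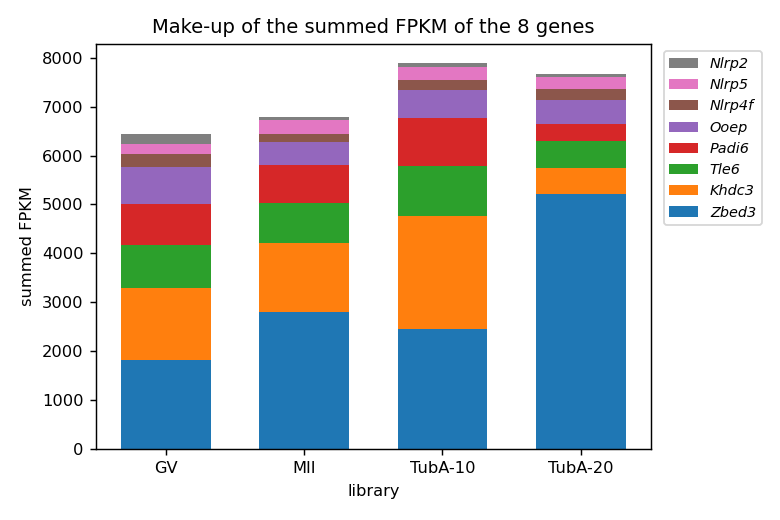
Summed FPKM of the 8 genes in each library, stacked by gene, from 1 library per condition. The totals lie between 6437 and 7889 FPKM, and *Zbed3* makes up 67.9% of the TubA-20 bar.

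Since *Zbed3* was the highest and *Khdc3* the lowest member in TubA-20 against MII, their promoter windows are shown, 250 bases before to 50 after the RefSeq start on GRCm38.p6. The E-box CANNTG, the motif of FIGLA and other bHLH factors, and TAATTG, the core of the NOBOX motif, were searched on both strands, and capitals mark the E-boxes. The sequences are the reference and are written on the strand of the gene.
Zbed3 (chr13:95323355-95323654, plus strand): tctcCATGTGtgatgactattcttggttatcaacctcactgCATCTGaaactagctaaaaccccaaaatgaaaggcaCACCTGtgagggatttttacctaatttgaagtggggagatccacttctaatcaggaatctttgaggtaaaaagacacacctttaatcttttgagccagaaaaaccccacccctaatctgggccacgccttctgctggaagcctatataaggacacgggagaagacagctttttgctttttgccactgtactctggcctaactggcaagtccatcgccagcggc
Khdc3 (chr9:73102148-73102447, plus strand): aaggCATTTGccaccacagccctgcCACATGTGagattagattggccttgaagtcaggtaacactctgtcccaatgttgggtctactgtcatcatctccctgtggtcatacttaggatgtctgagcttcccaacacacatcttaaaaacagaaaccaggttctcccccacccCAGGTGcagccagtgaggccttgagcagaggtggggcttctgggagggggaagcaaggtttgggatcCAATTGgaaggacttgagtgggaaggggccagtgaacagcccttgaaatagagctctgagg

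The *Zbed3* window held 3 E-boxes and the *Khdc3* window 5, of which 2 overlap within one run of capitals. Of the windows nearest the start of each member, 7 of 8 held an E-box, *Nlrp2* being the exception, and 72.3% of 32851 windows of the same length over all genes did. TAATTG was in 2 of 8, *Ooep* and *Padi6*, and in 8.00% of all windows.

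Transcripts of genes known to regulate transcription in the growing oocyte were taken from a fixed list of 6. *Figla*, a bHLH factor of the primordial follicle, was listed at 90.5 FPKM in GV oocytes, 41.9 in MII, 70.2 with TubA-10 and 12.4 with TubA-20. *Lhx8* was listed at 96.5, 65.4, 105 and 35.6 FPKM and *Nobox* at 219, 194, 189 and 125, both homeobox factors. *Lhx8* had the library order of *Khdc3*, from TubA-10 over GV and MII down to TubA-20, and TubA-20 was also lowest for *Figla* and *Nobox*. *Taf4b*, a subunit of the general transcription factor TFIID, went the other way at 7.30, 11.2, 9.03 and 12.6 FPKM, and *Sohlh2*, a bHLH factor below 10 FPKM, was likewise highest in TubA-20, at 6.78 FPKM, and past 2-fold higher there than in GV (log2 1.15). In TubA-20 against MII, 1 of the 6 was more than 2-fold lower and none higher. In TubA-20 against TubA-10, 2 were lower and none higher, and in TubA-20 against GV 2 were lower and 1 higher. Of all genes, 2.44%, 5.52% and 11.7% were lower in these comparisons, and 0.328%, 0.660% and 7.61% higher. Of genes of 10 FPKM or more, 6.03%, 14.3% and 27.7% were lower, and 0.463%, 1.62% and 22.7% higher.

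Other genes of the NLR family formed a list of 16, of which 15 were measured and 8 reached 10 FPKM in one library. Of these 8, 6 were above GV in MII, 8 at the lower dose and 7 at the higher, with median log2 ratios of 0.20, 0.29 and 0.11. The medians were 0.05 in TubA-10 against MII and 0.18 in TubA-20 against MII. No measured paralogue passed 2-fold against MII at either dose. Of all genes, 0.515% were higher and 0.128% lower by this limit in TubA-10 against MII, and 0.328% and 2.44% in TubA-20 against MII. *Nlrp14* was the most abundant at 1273 FPKM in GV oocytes, 1535 in MII, 1523 with TubA-10 and 939 with TubA-20, with TubA-20 the lowest library (log2 −0.71 against MII). *Nlrp9c*, at 95.3, 151, 138 and 214 FPKM, was the one paralogue past 2-fold in TubA-20 against GV (1.16). There 7.61% of all genes and 22.7% of those of 10 FPKM or more were higher. *Nlrp4a*, *Nlrp4b*, *Nlrp9a* and *Nlrp9b* stayed between 95.1 and 199 FPKM in all libraries.

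The relatives of the members outside the NLR family were mostly low. Of 15 measured, 4 reached 10 FPKM, the KH-domain genes *Khdc1a*, *Khdc1b*, *Khdc1c* and *Dppa5a*. *Dppa5a* was at 1229 FPKM in GV oocytes, 1002 in MII, 989 with TubA-10 and 568 with TubA-20. It was the one past 2-fold lower in TubA-20 against GV (log2 −1.11), and none was past 2-fold higher. Of all genes, 11.7% were lower and 7.61% higher there, and of genes of 10 FPKM or more 27.7% and 22.7%. *Khdc1b*, at 457, 648, 626 and 769 FPKM, was instead lowest in GV and highest in TubA-20. The relatives of *Padi6*, *Padi1* to *Padi4*, were below 1 FPKM in all libraries, so *Padi6* was the one member of its family with a high transcript level.

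Proteins that bind the complex or the lattices were held on a list of 7 genes, of which 6 reached 10 FPKM. *Cfl1*, which encodes the actin-severing protein cofilin, was at 220, 258, 320 and 244 FPKM. *Uhrf1*, whose product is stored in the cytoplasm of oocytes and works in DNA methylation, was at 140, 173, 151 and 137. *Ube2d3*, a ubiquitin-conjugating enzyme, was at 1078, 676, 748 and 754 FPKM, with GV the highest. *Ube2d2a*, a close relative, was at 83.1, 104, 88.0 and 184 FPKM and was the 1 of 7 past 2-fold higher in TubA-20 against TubA-10. Against GV, *Ube2d1* (log2 1.40) and *Ube2d2a* (1.14) were past 2-fold higher in TubA-20. Among genes of 10 FPKM or more, 22.7% were higher in TubA-20 against GV and 1.62% in TubA-20 against TubA-10. None of the 7 passed 2-fold against MII at either dose. Few genes of 10 FPKM or more did so with the lower dose, 1.34% being higher and 0.193% lower. With the higher dose, 0.463% of such genes were higher and 6.03% lower.

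Other maternal-effect genes gave a list of 24. Of these, 22 reached 10 FPKM, and their median log2 ratio was 0.39 in MII against GV, −0.07 in TubA-10 against MII and −0.01 in TubA-20 against MII, where 11 were above and 11 below 0. *Zar1l*, a zinc finger RNA-binding protein gene, was listed at 722 FPKM in GV oocytes, 125 in MII, 160 with TubA-10 and 59.2 with TubA-20. It was the 1 of 24 past 2-fold lower in TubA-20 against MII (log2 −1.07), where 6.03% of genes of 10 FPKM or more were. Its relative *Zar1* stood at 1408, 2000, 2115 and 1947 FPKM. *Btg4*, an adaptor for deadenylation of maternal mRNA, stood at 1808, 2589, 3031 and 2536 FPKM. In TubA-20 against GV, 4 of the 24 were past 2-fold higher and 1 lower, where 22.7% and 27.7% of genes of 10 FPKM or more were.

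**Figure D5:**
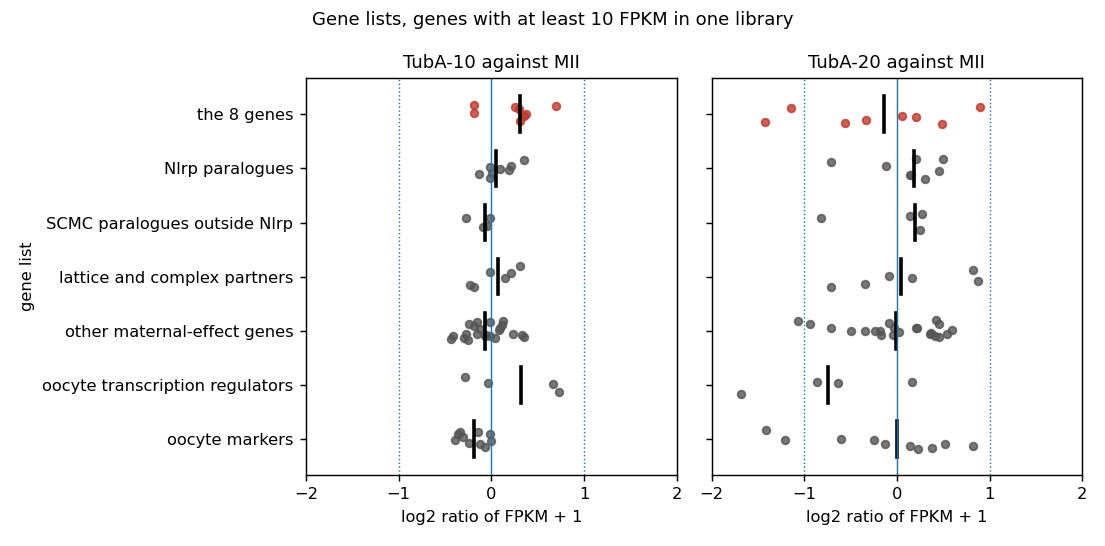
Log2 ratio of FPKM + 1 (horizontal axis) against MII at each dose for genes of 10 FPKM or more in any library, by gene list (vertical axis), with a black bar at each list's median, a line at 0 and dotted lines at 2-fold. The 8 genes have a median of 0.30 in TubA-10 and −0.13 in TubA-20, with *Padi6* and *Khdc3* past 2-fold lower.

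The cytoplasmic polyadenylation motif was compared with the values across genes as a description. Among 5919 genes, the 1292 with the motif had a median log2 ratio of 0.55 in MII against GV, and the 4627 without it had 0.07. In TubA-20 against MII the medians were 0.19 and 0.01, and in TubA-20 against TubA-10 they were 0.36 and 0.01. In TubA-10 against MII the order was the reverse, with −0.13 for genes with the motif and 0.05 for those without. Against GV the medians were 0.39 and 0.15 for TubA-10 and 0.79 and 0.14 for TubA-20. *Zbed3*, with 2 motifs, lay above the median of the genes with the motif in all of these but TubA-10 against MII, where it was below it (−0.19). *Nlrp4f*, with 1 motif, lay above that median against MII at the lower (0.37) and the higher dose (0.49). It lay below it between the doses (0.13) and against GV, in MII (−0.74), TubA-10 (−0.37) and TubA-20 (−0.24). Of the 6 members without the motif, *Nlrp5* was above the median of the genes without it in MII against GV (0.60), and the other 5 were below that median, from −0.05 (*Khdc3*) to −1.71 (*Nlrp2*). Above it were 4 of the 6 in TubA-10 against GV, 1 in TubA-20 against GV, 5 in TubA-10 against MII, 2 in TubA-20 against MII and 0 in TubA-20 against TubA-10. The part of tail length in any of these values was not tested.

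The genes most like the median profile of the members were found among 6360 genes of 10 FPKM or more in any library, by the root mean square difference of the 3 log2 ratios to GV. They were *Fxr2* (0.0410), *Rbpms2* (0.0642), *Nsun4* (0.0673), *Tmem8* (0.0692) and *Pinlyp* (0.0729), over 3 ratios that share GV. *Rbpms2*, for example, stood at 193, 182, 241 and 125 FPKM. Among the members themselves the closest profiles were those of *Ooep* and *Nlrp4f* (0.234) and of *Padi6* and *Khdc3* (0.268), and the farthest were those of *Zbed3* and *Nlrp2* (2.46).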

How the data were processed

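RNA-seq of mouse oocytes was measured in 4 libraries, 1 per condition (GV, MII, TubA-10, TubA-20), grouped by their titles. The authors deposited 1 table of FPKM values made with Cufflinks, in a strand-specific setting, against mm10. STAR 2.5.0, Cufflinks and Cuffdiff 2.2.1 are named in the submitters' processing notes. The gene model is UCSC by the methods, but identifiers in the table are from Ensembl, and the labels and methods differ on the extraction. FPKM are already divided by transcript length and mapped fragments, so no count model was used. Relative depth was estimated from low FPKM values, and the read totals in the study served only to set the order of TubA-20 and GV beside it.

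Of 21959 entries, 21794 received a symbol by identifier, and entries sharing a symbol were summed, which left 21957 genes. Log2 ratios of FPKM + 1 (pseudocount 1, no filter) were computed for 6 comparisons, and this scale understates the change of low genes. With 1 library per condition no test was run. The call was 2-fold, read against the share of all genes past it. Besides the members, genes of the other lists of 10 FPKM or more in any library could be named, along with *Gapdh*, the 5 genes nearest to the members' median profile, and genes that overlap or share sequence with members. These last, and the listed genes named below 10 FPKM (such as *Sohlh2*, *Inha* and *Foxl2*), were chosen after their values were seen. The members and lists were chosen with earlier results of these data known. Alternatives were pseudocounts of 0.1 and 0.01, 4 scalings, the highest entry of a shared symbol, limits of 1.5-fold and 3-fold, core members only and minimum levels of 1 and 10 FPKM.

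Sequences came from the Gencode transcripts on GRCm38 and the RefSeq promoter table, in which all 8 members were found. One principal transcript per gene entered. Shared sequence was searched in 50-base stretches over all annotated transcripts. Scripts were tested on simulated data. Python 3.11.15, numpy 2.4.6, pandas 2.3.3 and matplotlib 3.10.9 were used.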

Additional observations from a re-analysis of the deposited data

Results flagged for a closer look

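For 3 members, with the values as deposited, the doses lay on opposite sides of MII, more than 2-fold apart. *Khdc3* had a log2 ratio to MII of 0.70 in TubA-10 and −1.42 in TubA-20. *Padi6* had 0.35 and −1.14. *Zbed3* had the reverse order, with −0.19 and 0.90. The order of *Khdc3* and *Padi6*, without the 2-fold limit, was found for 29.0% of 5860 genes of 10 FPKM or more in MII, TubA-10 or TubA-20. The share with this limit and the share in the reverse order were not computed. *Zbed3* no longer passed 2-fold between the doses with equal upper quartiles or equal *Gapdh* (log2 0.89 for the second), and *Tle6*, at 0.31 and −0.56 against MII, did with equal *Gapdh* (−1.07). Each value compares 1 library with the same MII library, so the difference between the doses was not tested. TubA-20 and MII also differed in meiotic stage, and the part of stage in these values was not tested.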

How the results depend on the processing

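Of 336 values of single members under other pseudocounts, scalings and entries, 321 kept their direction and their side of the 2-fold limit. Of the 11 differences past 2-fold, 10 stayed past it under all 7 of these alternatives. The exception was *Zbed3* in TubA-20 against TubA-10. These counts overstate the stability. Each member had 1 entry and lay far above the pseudocounts, so the choice of entry could not alter a value and the pseudocounts hardly could. Every value that did not keep its direction or side came from a scaling. The median of the members in MII against GV turned from −0.11 to 0.02 with equal FPKM sums and to 0.12 with equal *Gapdh*. With equal upper quartiles or equal *Gapdh*, 0 members were higher in TubA-20 against TubA-10. At a 1.5-fold limit the members higher were 2 in MII against GV and 1 in each of TubA-10 against GV, TubA-10 against MII and TubA-20 against MII, and the members lower were 3 in MII against GV, 5 in TubA-20 against GV and 3 in TubA-20 against TubA-10. At a 3-fold limit 0 were higher in TubA-20 against GV and against TubA-10, 0 were lower in TubA-10 against GV, TubA-20 against GV and TubA-20 against MII, and 1 was lower in TubA-20 against TubA-10. The summed FPKM in MII against GV, a log2 ratio of 0.08, was −0.06 with the median change set to 0. Without *Zbed3*, a choice made after seeing the data, it was −0.21, and the sum was −0.91 in TubA-20 against GV, −0.70 in TubA-20 against MII and −1.14 in TubA-20 against TubA-10, where all 8 gave 0.25, 0.17 and −0.04. The causes were not tested.

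The median gene with at least 1 FPKM in every library stood at 0.14, 0.16 and 0.23 against GV in MII, TubA-10 and TubA-20 as deposited, and at 0.37, 0.43 and 0.30 with equal *Gapdh*. No paired analysis was possible because each condition has 1 library. Without replicates, no difference can be set against biological or technical error, and no depth per gene is given.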

Other observations

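The oocyte markers did not share a direction in TubA-20. The zona pellucida genes were lower than in MII, with *Zp2* at 753 FPKM in GV oocytes, 778 in MII, 770 with TubA-10 and 293 with TubA-20 and *Zp3* at 2454, 2256, 2151 and 973. *Zp1* stood at 910, 651, 553 and 429 FPKM. *Oosp1*, an oocyte-secreted protein gene, was at 2700, 3521, 3198 and 6213 FPKM, and *Gdf9*, which signals to the cumulus cells, at 1774, 2928, 2275 and 3822. Of the 10 markers, 2 were past 2-fold lower and none higher in TubA-20 against MII, where 6.03% of genes of 10 FPKM or more were lower and 0.463% higher. In TubA-20 against GV 3 were higher and 3 lower, where 22.7% and 27.7% of such genes were.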
